A study of Homo sapiens with 8 samples.

Results

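The MYC, MAX and MXD network was examined in a human neuroblastoma line, SK-N-SH, after the chromatin reader ZMYND8 had been raised or lowered. The network was represented by 10 genes taken by symbol from the 60659 genes of the count table: the MYC family genes MYCN, MYC and MYCL, the antisense transcript MYCNOS, their shared partner MAX, and the MAX-binding repressors MXD1, MXD3, MXD4, MXI1 and MNT. Every group had been given all-trans retinoic acid (ATRA) at 10 µM for 24 h, so no library shows the network without ATRA. In the overexpression experiment, parental SK-N-SH cells with doxycycline (Dox) were compared with cells that carried a Dox-inducible FLAG-tagged ZMYND8, introduced by lentivirus, and also received Dox. The parental cells are not described as carrying an empty vector. The knockdown experiment set ZMYND8 knockdown cells against KD control cells of their own. Each group had 2 libraries, named biological replicates in the labels. The p-values below rest on the spread between these libraries, which the test draws toward the trend over all genes.

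MYC proteins act as pairs with MAX that bind E-boxes, of which CACGTG is the classic form, and raise the expression of growth and ribosome genes. MXD1, MXD3, MXD4, MXI1 and MNT compete for MAX, bind the same sites and recruit the SIN3 histone deacetylase complex, and their balance with MYC shifts as cells leave the cycle and differentiate. Amplification of MYCN marks high-risk neuroblastoma, and retinoic acid lowers MYCN in amplified lines. SK-N-SH is known as a line without MYCN amplification that relies on MYC.

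The 8 libraries held 38316523 to 56256979 counts on genes. ZMYND8 itself was counted 3089 and 3612 times in parental cells against 220691 and 182849 times in overexpression. It was counted 3128 and 3374 times in KD control against 1641 and 1640 times in knockdown. Levels are given below as CPM, the counts scaled to a common library size, after TMM scaling of all 8 libraries, and levels of different genes were compared only as RPKM, which also divides by the exon length of the gene. A gene is said to have risen or fallen where the Benjamini-Hochberg adjusted p of edgeR's quasi-likelihood test, fitted over all genes, was below 0.05. It is said to be called where the absolute log2 fold change was also at least 1 and the mean normalized count above 20. Each test used TMM scaling of its own filtered libraries, and overlap between groups was read from the CPM. Tested log2 fold changes therefore lie above those of the printed CPM by 0.0909 in overexpression, 0.0022 in knockdown and 0.0127 between controls. In overexpression this offset is as large as the smallest fold changes given.

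Positions are those of GRCh38. MYCN (ENSG00000134323) spans chr2:15940550-15947007 on the plus strand, and 3.75% of its exon bases lie opposite MYCNOS (ENSG00000233718, chr2:15918350-15942249). MYCL (ENSG00000116990) spans chr1:39895426-39902256. MAX (ENSG00000125952, chr14:65006174-65102695) has 16.1% of its exon bases opposite FNTB and other genes. MXD3 (ENSG00000213347, chr5:177301461-177312757) shares 18.0% of its exon bases with RAB24 on the same strand and has 22.3% opposite PRELID1, so reads of these genes can be mixed with its counts. MXD4 (ENSG00000123933) spans chr4:2247432-2262109, MXI1 (ENSG00000119950) chr10:110207605-110287365, MXD1 (ENSG00000059728) chr2:69897688-69942945, and MNT (ENSG00000070444) chr17:2384073-2401104. The strand setting of the counting is not given in the sources used here.

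RefSeq promoter windows (GRCh38.p14, 250 bases before to 50 after the start site) were matched for 9 of the 10 genes, MYC being the exception. They are shown for the family members that moved most in overexpression, MYCN and MYCL, and for MXD4 and MNT, whose windows hold the E-box of the network. Capitals mark CACGTG and, in MYCN, TTTNGCGC, the type of site bound by E2F factors, which was picked after the sequence had been seen.
MYCN (chr2:15940300-15940599, plus strand): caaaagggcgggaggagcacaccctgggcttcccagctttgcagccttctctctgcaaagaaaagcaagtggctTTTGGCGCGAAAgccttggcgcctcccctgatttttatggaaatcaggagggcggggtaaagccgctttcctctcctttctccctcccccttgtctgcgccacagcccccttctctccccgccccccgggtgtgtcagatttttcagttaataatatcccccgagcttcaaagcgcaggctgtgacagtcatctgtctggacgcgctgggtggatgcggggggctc
MYCL (chr1:39901868-39902167, minus strand): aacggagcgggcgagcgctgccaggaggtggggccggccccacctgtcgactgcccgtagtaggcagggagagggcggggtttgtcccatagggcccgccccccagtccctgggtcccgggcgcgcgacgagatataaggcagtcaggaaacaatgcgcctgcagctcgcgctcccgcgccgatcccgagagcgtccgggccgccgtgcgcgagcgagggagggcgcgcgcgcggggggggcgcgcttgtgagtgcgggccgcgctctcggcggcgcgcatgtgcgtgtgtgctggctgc
MXD4 (chr4:2262060-2262359, minus strand): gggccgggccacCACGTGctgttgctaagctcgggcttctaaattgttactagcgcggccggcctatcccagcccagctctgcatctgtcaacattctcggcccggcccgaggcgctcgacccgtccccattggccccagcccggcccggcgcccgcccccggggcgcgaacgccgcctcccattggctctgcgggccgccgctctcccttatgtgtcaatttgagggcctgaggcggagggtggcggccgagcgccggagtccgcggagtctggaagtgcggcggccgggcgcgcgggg
MNT (chr17:2401011-2401310, minus strand): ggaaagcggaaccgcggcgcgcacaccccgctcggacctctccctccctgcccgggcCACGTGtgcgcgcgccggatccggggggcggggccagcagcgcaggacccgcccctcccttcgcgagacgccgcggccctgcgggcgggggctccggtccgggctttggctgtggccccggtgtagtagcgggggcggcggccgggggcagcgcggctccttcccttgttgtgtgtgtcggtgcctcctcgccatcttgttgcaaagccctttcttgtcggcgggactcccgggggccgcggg

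Both strands were searched. CACGTG began at an offset of -238 from the start site in MXD4 and -193 in MNT, and 7.26% of all 35116 windows held this motif. The MYCN window held 2 overlapping matches to TTTNGCGC, at offsets of -176 and -172, against 1.79% of all windows with any match. The looser CANNTG, which includes CACGTG, was found in 8 of the 9 genes and in 68.7% of all windows. GC content was 74.7% in the MYCL window, 72.3% in MXD4 and 76.0% in MNT, and 58.7% in both the MYCN window and the median window. A match says only that these letters are present, since binding was not measured in these libraries.

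In cells overexpressing ZMYND8, MYCN and MYCL were higher than in parental cells while MYC was not measurably different. Of the 9 network genes with enough counts to be tested, 5 rose, 1 fell and 3 did not pass the test. The background was wide, since 60.8% of the 20835 genes tested passed the same test, 31.7% upward and 29.1% downward. MYCN and MYCL were called, both higher, beside 18.6% of all genes tested called and 11.8% called higher. MYCN passed the filter on low counts only through the overexpression libraries, where it is high, so its call is no support for a share of members.

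MYCN went from near absence to a low level. Parental cells gave 5 and 1 counts and overexpression gave 93 and 58, at 0.119 and 0.0198 CPM against 1.67 and 1.26 CPM. Both overexpression libraries lay above both parental libraries. The fitted log2 fold change, which depends on so few parental counts, was 4.53 (SE 0.479, 95% interval 3.47 to 5.598, adjusted p = 1.36e-05). The ratio of the summed counts, scaled for depth, was 22.9, with an exact 95% interval of 10.3 to 63.4 that covers counting error only. The estimate leaned on the parental libraries, being 6.12 without parental replicate 1 and 3.68 without parental replicate 2.

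MYCNOS, transcribed against MYCN and described as a regulator of it, stood at 0 counts in both samples of parental cells and at 4 and 1 counts in overexpression. That was too few for a test, and no fold is given because these counts lie near the floor of 3 counts. In bulk RNA, a rise of MYCN in all cells and a gain of a few cells that express it cannot be told apart, nor can fewer cells of a type and less RNA per cell.

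MYCL, the family member first found in small cell lung cancer, went from 15 and 21 counts in parental cells to 217 and 167 in overexpression. Its level was 0.356 and 0.415 CPM in the former and 3.90 and 3.62 CPM in the latter, with no overlap. The log2 fold change was 3.36 (SE 0.218, 95% interval 2.87 to 3.85, adjusted p = 3.01e-07), a 10.3-fold rise.

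MYC (ENSG00000136997, chr8:127735434-127742951) gave overlapping groups. Its level was 5.79 and 7.04 CPM in parental cells and 5.98 and 4.51 CPM in overexpression. The log2 fold change was -0.20 with a 95% interval from -0.55 to 0.15 (adjusted p = 0.298), an interval that leaves room for a moderate fall. Without overexpression replicate 1 the value was -0.41 and passed the test (adjusted p = 0.0466).

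MAX, the obligate partner, was at 71.7 and 72.1 CPM in parental cells and 57.3 and 56.3 CPM in overexpression. The overexpression libraries were the lower ones, with a log2 fold change of -0.25 (SE 0.0485, adjusted p = 0.0012). This fall is relative to the TMM scaling. With total counts as the only scaling, the median of all genes moved to a log2 fold change of 0.29 and that of MAX was 0.01 (adjusted p = 0.917), so small falls in overexpression given below also hold relative to TMM.

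Among the repressors, MXI1 rose most. It was at 30.6 and 30.1 CPM in parental cells and 46.1 and 45.3 CPM in overexpression (log2 fold change 0.68, SE 0.0540, adjusted p = 1.41e-06). MXD1, linked to terminal differentiation, was at 12.04 and 9.52 CPM and then 14.7 and 13.7 CPM (log2 fold change 0.49, SE 0.116, adjusted p = 0.00399). The groups did not overlap for either gene, and neither was called.

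MXD4 was the most abundant repressor of parental cells per length and rose less. Its level was 99.5 and 106.5 CPM against 119.1 and 123.3 CPM (log2 fold change 0.33, SE 0.0526, adjusted p = 0.000332). It no longer passed the test after correction for gene length and GC content (log2 fold change 0.04, adjusted p = 0.483).

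MXD3, which is expressed in cycling cells, and MNT, the broadly expressed antagonist, did not pass the test. MXD3 was at 12.1 and 13.2 CPM in parental cells and 12.4 and 13.1 CPM in overexpression (log2 fold change 0.11, 95% interval -0.10 to 0.31, adjusted p = 0.336). MNT was at 53.1 and 54.9 CPM against 52.8 and 55.3 CPM (log2 fold change 0.09, 95% interval -0.03 to 0.21, adjusted p = 0.162). The sign of MNT depended on the correction, as it was -0.27 (adjusted p = 0.00118) with that correction and 0.35 (adjusted p = 0.000163) with total counts as the scaling. In all, 6 of the 9 tested genes did not overlap between groups, against 80.9% of all genes tested. MYCN is among the 6 and passed the filter on low counts only through overexpression, so it adds no support to this share.

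**Figure D1:**
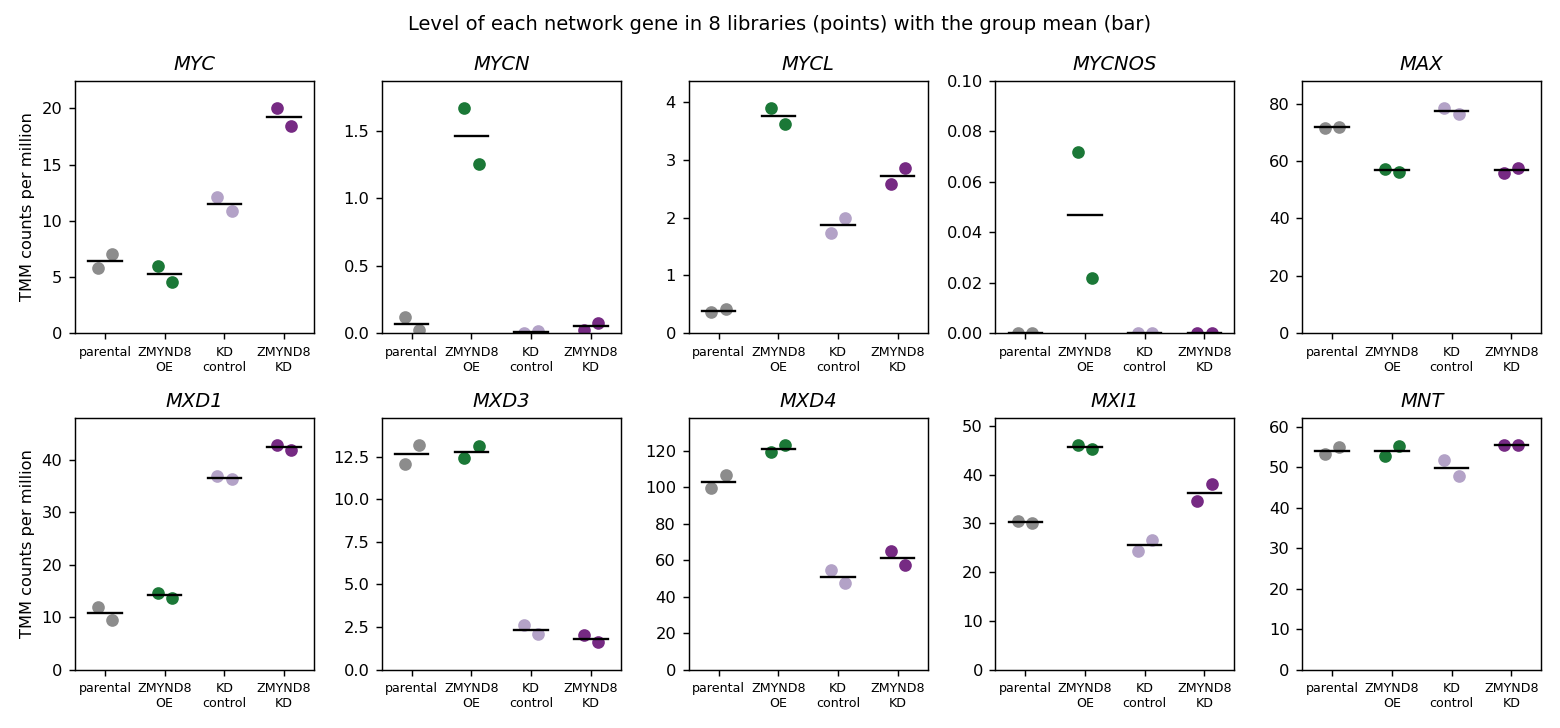
TMM-scaled CPM of the 10 network genes in each of the 8 libraries (points) with the group mean (bar), each panel on its own linear axis from 0. MYCN and MYCL are highest in ZMYND8 overexpression (OE), and MYC is highest in ZMYND8 knockdown (KD). MYCNOS rests on 4 and 1 counts in OE and 0 in each other library, near the floor. MAX is lower in OE than in parental cells, with TMM scaling but not with total counts. It is also lower in KD than in KD control.

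In ZMYND8 knockdown, MYC rose and MAX fell. Of 8 network genes tested against KD control, 5 rose, 1 fell and 2 did not pass the test, and none was called. Over all 19789 genes tested, 24.3% passed the test, 13.4% upward and 10.8% downward, and 1.96% were called. No overlap between groups was seen for 8 of the 8 genes and for 61.5% of all genes tested.

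MYC had 629 and 594 counts in KD control against 1035 and 949 in knockdown, or 12.1 and 10.9 CPM against 20.03 and 18.4 CPM. Both knockdown libraries lay well above both controls, and they held the highest MYC levels of all 8 libraries. The log2 fold change was 0.75 (SE 0.0913, 95% interval 0.54 to 0.95, adjusted p = 0.000234), a 1.68-fold rise, and it stayed between 0.67 and 0.82 over the 13 alternatives run.

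MYCN stayed at the floor in this experiment, with 0 and 1 counts in KD control and 1 and 4 in knockdown, and was not tested. MYCNOS had 0 counts in all 4 libraries. MYCL was at 1.73 and 2.00 CPM in KD control and 2.57 and 2.85 CPM in knockdown (log2 fold change 0.54, SE 0.174, 95% interval 0.16 to 0.93, adjusted p = 0.0449). The result for MYCL was narrow and no longer passed the test in 7 of 13 alternatives, among them DESeq2 (adjusted p = 0.143) and leaving out KD control replicate 1, KD control replicate 2 or knockdown replicate 2.

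MAX was at 78.5 and 76.3 CPM in KD control and 56.0 and 57.7 CPM in knockdown. The knockdown libraries were clearly the lower ones, by a log2 fold change of -0.44 (SE 0.0508, adjusted p = 0.000152), and total counts as the scaling gave -0.50. The level of MAX in knockdown, 56.8 ± 1.17 CPM (SD, n = 2), was as low as in overexpression, 56.8 ± 0.759 CPM, with TMM scaling, whereas total counts gave 52.8 CPM in knockdown and 67.7 CPM in overexpression.

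MXI1 again showed the largest repressor change, from 24.4 and 26.6 CPM to 34.6 and 38.04 CPM (log2 fold change 0.51, SE 0.0739, adjusted p = 0.000654). MXD1 was at 36.8 and 36.3 CPM in KD control and 42.8 and 41.9 CPM in knockdown (log2 fold change 0.21, adjusted p = 0.0213). MXD4 was at 54.4 and 47.7 CPM and then 65.2 and 57.5 CPM (log2 fold change 0.27, adjusted p = 0.0291). The last 2 results were less firm, as MXD1 no longer passed the test in 6 and MXD4 in 4 of 13 alternatives. Without KD control replicate 1, KD control replicate 2 or knockdown replicate 1, the number of network genes that rose was 3, 2 and 3.

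MXD3 and MNT did not pass the test in knockdown either. MXD3 was low, at 2.59 and 2.11 CPM in KD control and 2.01 and 1.65 CPM in knockdown (log2 fold change -0.36, 95% interval -0.78 to 0.07, adjusted p = 0.216). MNT was at 51.7 and 47.8 CPM against 55.5 and 55.5 CPM (log2 fold change 0.16, 95% interval 0.03 to 0.29, adjusted p = 0.0673).

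**Figure D2:**
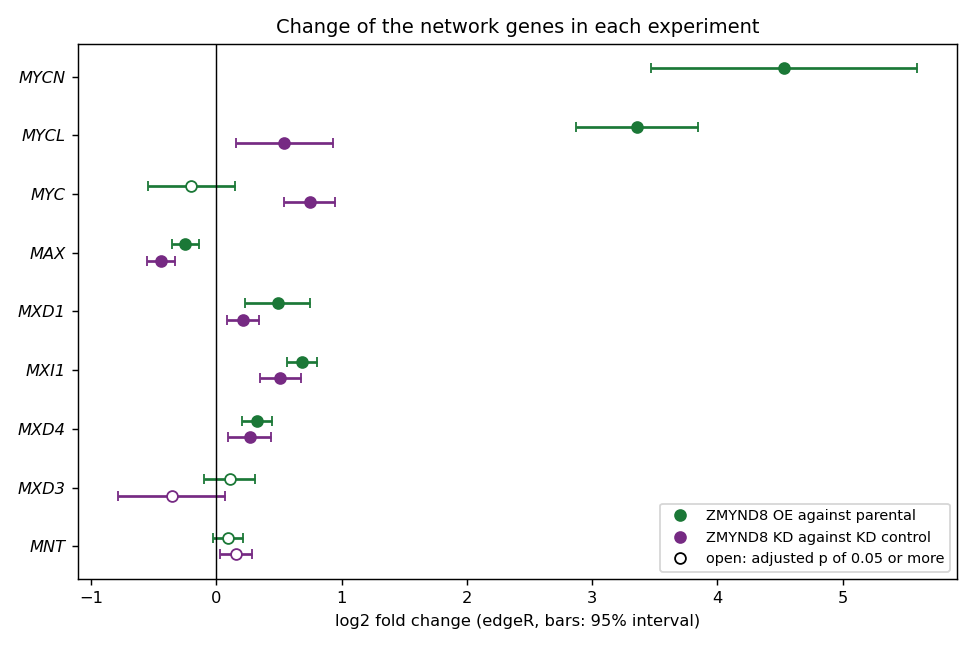
Fitted log2 fold changes of the network genes with 95% intervals in ZMYND8 overexpression against parental and ZMYND8 knockdown against KD control. Filled points have an adjusted p below 0.05. MYCN and MYCL lie far to the right in overexpression, and MYCL, MXD1, MXI1 and MXD4, and with TMM scaling but not with total counts MAX, lie on the same side of 0 in both experiments with filled points.

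The effects of overexpression and knockdown were compared in 1 model over all 8 libraries. Over the 22619 genes tested, 49.0% differed between the effects, 24.6% above 0 and 24.4% below. Among 9 network genes, the difference (overexpression effect minus knockdown effect) was above 0 for 2 and below 0 for 1. It was 2.81 for MYCL (SE 0.282, adjusted p = 8.85e-07) and -0.95 for MYC (SE 0.184, 95% interval -1.34 to -0.56, adjusted p = 0.000554). Both MYC and MYCL kept this sign and an adjusted p below 0.05 in all 14 alternatives.

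MAX differed by 0.19 (adjusted p = 0.0354), which no longer passed the test in 10 of 14 alternatives. MXI1 moved upward in both experiments, and its 2 effects differed by 0.16 (95% interval -0.03 to 0.36, adjusted p = 0.16). For MYCN the difference of 2.42 had an interval from -2.60 to 7.45 (adjusted p = 0.427), because the KD control and knockdown libraries held 0 to 4 counts. MXD1, MXD3, MXD4 and MNT differed by 0.27, 0.46, 0.05 and -0.07 and did not pass the test (adjusted p of 0.0898, 0.07, 0.712 and 0.476).

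The control groups differed from each other in this network. Of 8 genes tested in KD control against parental cells, 4 were higher and 3 lower, and MXD1 and MYCL were called higher and MXD3 lower. Of all 20385 genes tested, 69.9% passed the test, 33.6% upward and 36.2% downward, and 21.6% were called, 10.8% in each direction. MXD1 was higher in KD control by a log2 fold change of 1.78 (adjusted p = 5.73e-08), MYCL by 2.27 (adjusted p = 1.04e-05) and MYC by 0.85 (adjusted p = 8.86e-05). MXD3 was lower by 2.41 on the log2 scale, with a log2 fold change of -2.41 (adjusted p = 6.07e-08), and MXD4 had a value of -0.9999, just short of being called (adjusted p = 1.95e-07). MAX (0.12) and MXI1 (-0.24) moved less, and MNT (-0.11, adjusted p = 0.114) did not pass the test. Dox, the experiment and the handling of the cells differed together between these groups and cannot be told apart.

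MXD3 was lower in the same control libraries as most proliferation genes. Of 10 such genes, 9 were lower in KD control and 1 higher, and their summed level was 1392 to 1412 CPM in parental cells and 763 to 868 CPM in KD control. This sum and the marker sums below add CPM over genes, so the most abundant genes weigh most in them. Of 8 tested adrenergic markers 8 were higher in KD control, with sums of 335 and 337 CPM in parental cells and 747 and 790 CPM in KD control. Of 10 mesenchymal markers 7 were lower and 3 higher, with sums of 9876 and 10553 CPM against 4993 and 4851 CPM. The part of these markers in the differences of MXD3, MXD1, MYCL and MYC was not tested.

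Per length, MAX, MXD4, MNT, MXI1 and MXD1 stood above each MYC family gene taken singly, by mean RPKM in every group. MXD3 stood below MYC in KD control and knockdown. In parental cells the order of mean RPKM was MXD4 (15.0), MAX (11.5), MNT (6.21), MXI1 (5.14), MXD3 (2.45), MXD1 (1.70), MYC (1.40), MYCL (0.0762) and MYCN (0.0265), and only MXD1 and MYC overlapped between neighbours. In overexpression MXI1 at 7.74 RPKM stood above MNT at 6.21 RPKM, and MYCL at 0.742 RPKM and MYCN at 0.559 RPKM stood next below MYC at 1.14 RPKM. In KD control MAX led at 12.4 RPKM, and MXD1 and MNT overlapped at 5.76 and 5.72 RPKM. In knockdown MAX and MXD4 overlapped at 9.09 and 8.93 RPKM, as did MNT and MXI1 at 6.38 and 6.15 RPKM, MYC reached 4.19 RPKM, and MXD3 was lowest of the repressors at 0.355 RPKM.

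The make-up of the MYC family differed between experiments. MYC gave 91.6% and 94.5% of the summed RPKM of MYC, MYCN and MYCL in parental cells and 48.1% and 45.1% in overexpression. There MYCN gave 23.5% and 22.1%, and MYCL 28.4% and 32.8%. In KD control and knockdown MYC remained the main member at 85.5% to 89.4%.

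The summed RPKM of the 3 genes was 1.38 and 1.63 in parental cells and 2.71 and 2.18 in overexpression. It was 2.98 and 2.78 in KD control and 4.89 and 4.61 in knockdown. The sum of MXD1, MXD3, MXD4, MXI1 and MNT was 29.99 and 30.96 RPKM in parental cells, 35.9 and 36.7 RPKM in overexpression, 24.3 and 23.1 RPKM in KD control and 28.9 and 28.1 RPKM in knockdown. Both sums were thus higher in each treated group than in its control, without overlap. The ratio of repressor to MYC family RNA was 21.7 and 19.0 in parental cells, 13.2 and 16.8 in overexpression, 8.15 and 8.32 in KD control and 5.91 and 6.09 in knockdown. With 2 libraries against 2, an exact two-sided permutation test of these sums could not go below p = 0.333, and none was run. RPKM uses the exon length of all isoforms together, so the sums describe RNA over annotated exons and not protein.

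**Figure D3:**
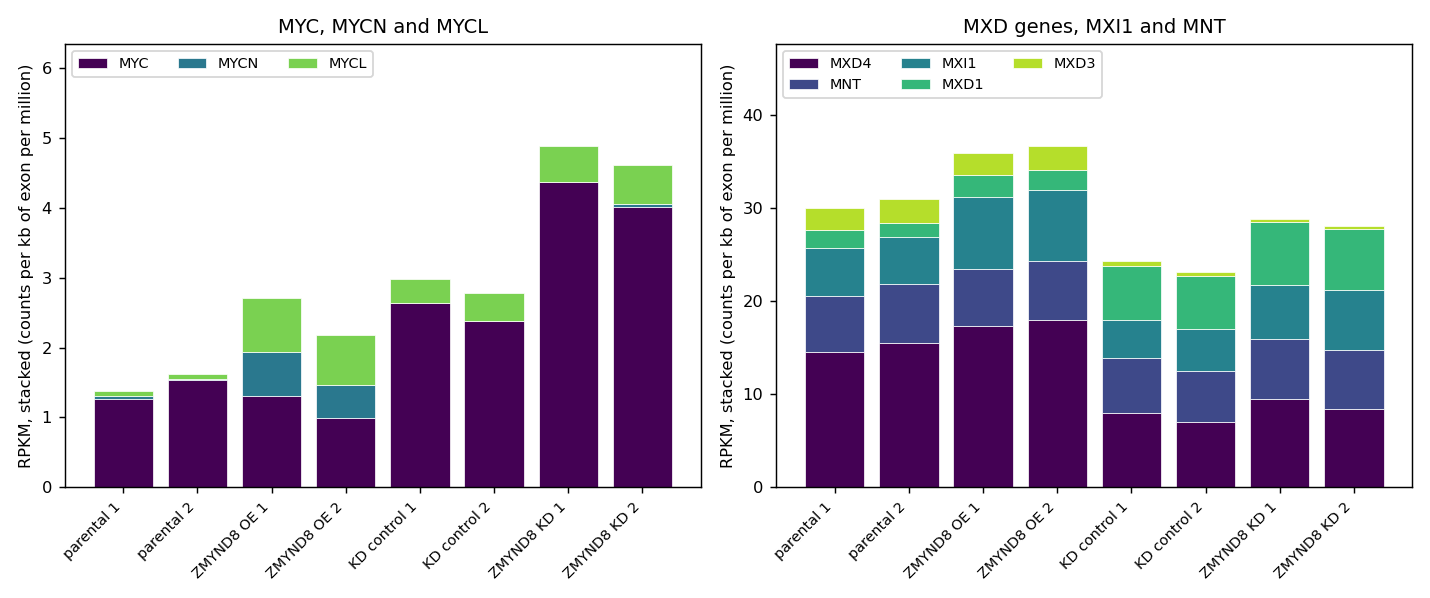
Stacked RPKM (counts scaled for library size and kb of exon) of the MYC family genes and of the MXD and MNT repressors in the 8 libraries, with a linear axis from 0 in each panel. MYCN and MYCL make up about as much of the bar as MYC in the overexpression libraries, and the MYC family bars are tallest in knockdown at 4.89 and 4.61 RPKM.

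The genes next to the MYC family were read beside it. DDX1 and NBAS, the neighbours of MYCN that are often amplified with it, had 5814 to 10028 and 4487 to 6852 counts in every library while MYCN held 0 to 93. In overexpression DDX1 had a log2 fold change of 0.11 (adjusted p = 0.0539) and NBAS of 0.07, neither past the test. PVT1, the long noncoding RNA beside MYC, fell in overexpression from 732 and 829 to 552 and 423 counts (log2 fold change -0.73, adjusted p = 4.17e-05). In knockdown PVT1 had 1302 and 1521 counts against 1470 and 1118 (log2 fold change -0.07, adjusted p = 0.687), so the rise of MYC was not accompanied by a measured rise of PVT1. Of 8 listed neighbours 5 were tested, of which 0 rose and 1 fell in overexpression, and 1, NBAS (0.19), rose in knockdown. The shares of all genes tested that passed were 60.8% in overexpression and 24.3% in knockdown.

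The MLX arm of the network, whose factors respond to glucose and bind related E-boxes, was listed with MGA as 4 genes. In overexpression MLXIP fell (log2 fold change -0.71, adjusted p = 5.25e-07), MLX fell (-0.31) and MLXIPL rose from 18 and 8 to 46 and 36 counts (1.58, adjusted p = 0.00625), a gene that passed the filter only through overexpression. MGA, which pairs with MAX in a repressive complex, had a value of 0.11 and did not pass the test there. In knockdown MGA (0.34, adjusted p = 0.00161) and MLXIP (0.29, adjusted p = 0.00296) rose and MLX did not pass the test. The effects on MLXIP differed between the experiments by -1.01 (adjusted p = 3.02e-08).

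Cofactor genes changed by small amounts. The same test was passed by 60.8% of all genes tested in overexpression and by 24.3% in knockdown. Of 13 coactivator genes of MYC, 1 rose and 1 fell in overexpression, KAT5 (0.24) and EP400 (-0.32), both members of the TIP60 acetyltransferase complex. In knockdown 3 rose and 1 fell, with WDR5, a scaffold that holds MYC on chromatin, at 0.35 and ACTL6A at -0.35. Of 13 genes of the SIN3 complex, through which the MXD proteins repress, 5 rose and 5 fell in overexpression, with SAP30 at 0.35, RBBP4 at 0.28, ARID4B at -0.51 and RBBP7 at -0.36. In knockdown 2 rose, SIN3B (0.21) and HDAC2 (0.17), and 0 fell. The median log2 fold change of the SIN3 genes was -0.09 in overexpression and 0.02 in knockdown, beside 0.03 and -0.01 over all genes tested.

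Of 12 genes that control the stability of MYC protein, 4 rose and 6 fell in overexpression, and 2 rose and 0 fell in knockdown, beside 60.8% and 24.3% of all genes tested that passed. PIM1, a kinase that stabilises MYC, rose in both, by 0.65 in overexpression (adjusted p = 1.06e-05) and 0.53 in knockdown (adjusted p = 0.000505). PPP2R5A, a phosphatase subunit that promotes loss of MYC, fell in overexpression (-0.53) and rose in knockdown (0.51). CIP2A, which protects MYC from that phosphatase, fell in overexpression (-0.48).

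Known targets of MYC were counted in the same fits. Of 58 genes that MYC is known to induce, 9 rose, 26 fell and 23 did not pass the test in overexpression, with a median log2 fold change of -0.10 beside 0.03 over all genes, and none was called. Of all genes tested, 60.8% passed the test, 31.7% upward and 29.1% downward. The split turned with the scaling, as 26 rose and 10 fell with total counts alone. LDHA, of lactate production, fell by 0.89 on the log2 scale, and TFB2M (-0.70) and DDX18 (-0.66) fell, while SLC29A2 (0.89), SORD (0.65) and TMEM97 (0.55) rose.

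In knockdown 13 of the 58 rose, 4 fell and 41 did not pass the test, with a median of 0.11. TCOF1, needed for ribosomal RNA synthesis, rose from 8402 and 8765 to 12735 and 12406 counts (log2 fold change 0.60, adjusted p = 1.52e-05). MYBBP1A (0.42) and DDX18 (0.39), also nucleolar, rose, and SLC29A2 (-0.50), PLK4 (-0.34) and SLC19A1 (-0.29) fell. Of all genes tested, 13.4% rose and 10.8% fell. Without KD control replicate 2, 8 rose and 0 fell, and without KD control replicate 1 or knockdown replicate 1, 1 fell.

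Genes that MYC is known to repress changed in both directions in overexpression. Of 13 tested, 6 rose and 6 fell, beside 31.7% and 29.1% of all genes tested. Called higher were 6 and called lower 4, beside 18.6% of all genes tested called and 11.8% called higher. NGFR, the p75 neurotrophin receptor, went from 183 and 184 to 3671 and 3813 counts (log2 fold change 4.31, adjusted p = 9.78e-10). A high level of NGFR was not particular to overexpression, as KD control held 4261 and 3912 counts. Against parental cells, KD control had a log2 fold change of 4.29 for NGFR (adjusted p = 8.89e-11). CEBPA, a differentiation factor, went from 4 and 9 to 63 and 51 counts and passed the filter only through overexpression, while the cell cycle inhibitor CDKN2B (-3.51), the transglutaminase TGM2 (-2.61) and TGFBR2 (-1.77) fell. In knockdown 2 of 12 rose and 4 fell, among them NGFR (0.82), CDKN2B (-0.50) and TGM2 (-0.25). Over all genes tested in knockdown, 13.4% rose and 10.8% fell.

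**Figure D4:**
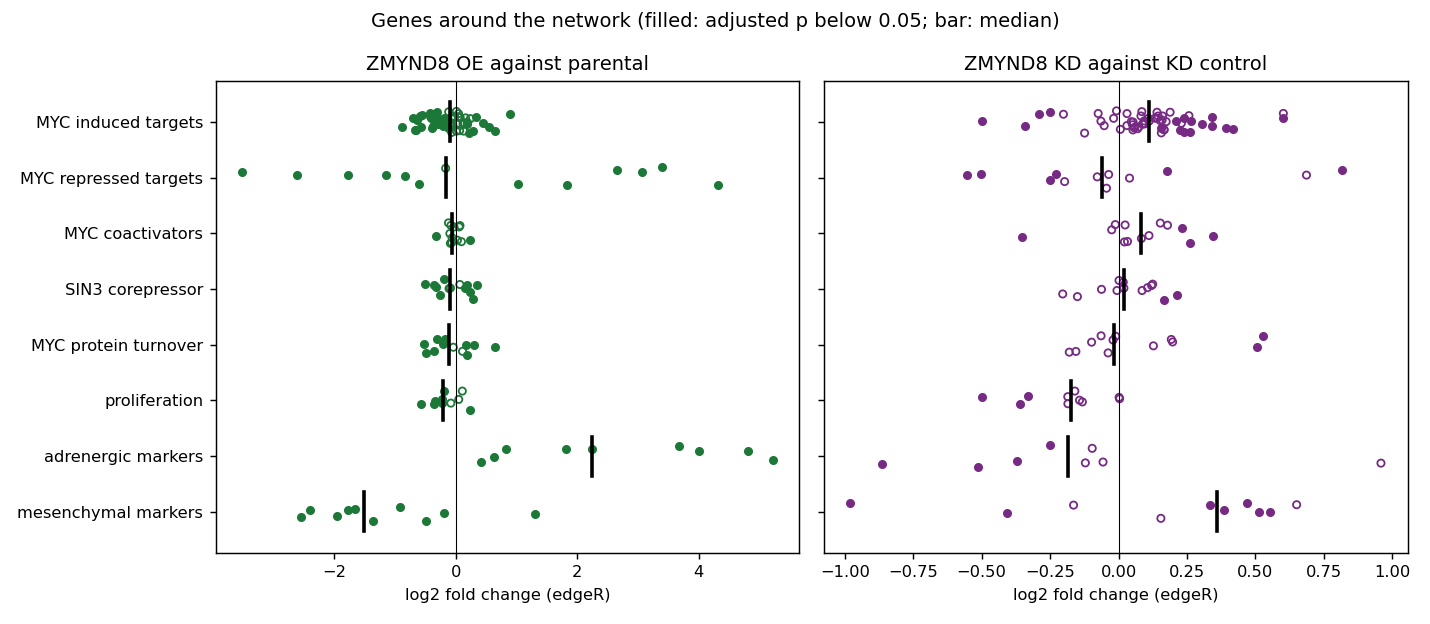
Log2 fold changes of every tested gene of the lists around the network in ZMYND8 overexpression and in ZMYND8 knockdown, with the list median as a bar and filled points at an adjusted p below 0.05. The panels have different horizontal scales. The induced targets lie close to 0 in both, with medians of -0.10 and 0.11, whereas the adrenergic and mesenchymal markers lie far apart in overexpression at medians of 2.25 and -1.50.

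Markers of the 2 states of neuroblastoma cells moved in the same libraries as the MYC family. In overexpression 9 of 9 tested adrenergic markers rose, and their summed level was 335 and 337 CPM in parental cells and 1089 and 1131 CPM in overexpression. TH, the enzyme that starts catecholamine synthesis and a defining adrenergic marker, had 0 to 5 counts in every library. Of 10 mesenchymal markers 9 fell and 1, TWIST1, rose, with a summed level of 9876 and 10553 CPM in parental cells and 3634 and 3384 CPM in overexpression. Of 10 proliferation genes 6 fell and 1 rose, with sums of 1392 to 1412 CPM against 1152 to 1272 CPM. Beside these counts, 31.7% of all genes tested rose and 29.1% fell.

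In knockdown 4 of 8 adrenergic markers fell and 0 rose, with sums of 747 and 790 CPM in KD control and 587 and 654 CPM in knockdown. Of 10 mesenchymal markers 5 rose and 2 fell, with sums of 4993 and 4851 CPM against 6460 and 6074 CPM. COL1A1 weighs most in these sums, with 86855 and 86022 counts in KD control and 124426 and 114009 in knockdown. The 2 that fell were PRRX1 (log2 fold change -0.98) and SNAI2 (-0.41). The largest of the 5 rises were those of YAP1 (0.55) and COL1A1 (0.51), so the markers did not move in 1 direction. Of the proliferation genes 3 fell, and the sums were 763 to 868 CPM against 660 to 712 CPM. Beside these counts, 13.4% of all genes tested rose in knockdown and 10.8% fell. The part of these marker changes in the results for MYCN, MYCL, MYC and MAX was not tested.

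Genes that followed the MYC family most closely over the 8 libraries were found by the correlation of log2(CPM + 0.5) among 13546 genes with a mean normalized count above 100. For MYCN they were ZSCAN5A (Pearson r = 0.991), CYP26A1 (0.989) and PRRX2 (0.988). CYP26A1, the enzyme that breaks down retinoic acid, had 1633 and 2042 counts in parental cells, 60280 and 52566 in overexpression and 1586 to 1843 in the other libraries. For MYC they were UBE2G2 (0.995), SESN2 (0.994) and RAD54L2 (0.993). SESN2, induced by metabolic stress, had 1640 and 2053 counts in parental cells, 1904 and 1395 in overexpression, 3184 and 2998 in KD control and 4319 and 4105 in knockdown. The libraries fall into 4 groups of 2, so each correlation describes mainly the group levels and carries no test.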

How the data were processed

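Total RNA of 8 SK-N-SH libraries, 2 in each of 4 groups, was analysed from the count table. The values deposited by the authors are unnormalized read counts of genes. By the study's methods, Trim_Galore trimmed the reads, HISAT2 aligned them to GRCh38, and featureCounts assigned them to a GENCODE annotation. Samples were grouped by their labels. Of 60662 lines, 3 that belonged to a gene split over several lines were left out. Symbols came from GENCODE release 44, which held 60418 of the 60659 identifiers. Exon overlaps came from the exon positions deposited with the counts.

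Counts of each comparison were filtered with filterByExpr, scaled with TMM and tested with the two-sided quasi-likelihood test of edgeR (4.0.16, run with limma 3.58.1 under R 4.3.3), with Benjamini-Hochberg adjustment over all genes tested. The fit over all 8 libraries tested the difference of effects. The standard error is the absolute log2 fold change over the square root of F. Replicates differed by more than counting noise, with a chi-square per degree of freedom of 5.52 to 7.97. Exact intervals cover counting error only. The scripts were tested on simulated data.

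All 10 network genes were named. From each other list the 2 largest increases and decreases, or 3 for MYC targets, were named among genes with an adjusted p below 0.05, a mean normalized count above 20 and groups without overlap. All MLX genes, neighbours and markers could be named. Some genes that the rule names are not reported here. The members and lists were chosen with earlier results of these data known. The alternatives were RLE and upper quartile scaling, DESeq2 (1.42.0), no filter on low counts, a joint fit of all 8 libraries, the replicate block, a correction for length and GC content (loess, span 0.5, recentred on the median of all genes) with and without the block, a fold threshold and each library left out in turn. Total counts without normalization factors were added after seeing the data.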

Additional observations from a re-analysis of the deposited data

How the results depend on the processing

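In 14 cases a network gene changed sign, and except for MAX the changed value belonged to a gene that had not passed the test. With total counts alone, overexpression gave MYC 0.0549 and MAX 0.00651, and the difference of effects for MNT was 0.24. The length and GC correction gave MXD3 -0.16 and MNT -0.27 in overexpression and MNT 0.0490 between controls, and -0.157, -0.27 and 0.0482 with the replicate block. The difference for MXD4 was -0.011 by DESeq2, -0.00998 by RLE, -0.0316 without the filter, and -0.0517 to 0.139 as libraries were left out. The cause was not tested. Of all comparisons of a network gene under an alternative, 381 kept sign and side of the threshold, 39 no longer passed the test and 17 newly passed it.

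Counts of network genes moved as follows. In overexpression 2 fell with the length and GC correction, with or without the block, 0 with total counts, and 1 to 2 as libraries were left out. In knockdown 2 rose without the filter, 2 with total counts, and 2 to 4 as libraries were left out. The difference of effects was above 0 for 1 gene by DESeq2, by RLE and without the filter, 5 by upper quartile, 7 by total counts, and 1 to 2 as libraries were left out. A fold threshold left 2 higher and 0 lower in overexpression, 0 and 0 in knockdown, 2 and 1 between controls, and 1 and 0 for the difference, and it left 0 induced targets in either experiment.

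Of the induced targets, 14 rose in overexpression by upper quartile, 26 by total counts (10 fell), and 5 to 10 as libraries were left out, the lowest without parental replicate 1. In knockdown 22 rose with the replicate block, 24 with the block and the length and GC correction, and 8 to 16 as libraries were left out, while 2 fell by DESeq2, 1 without the filter and 0 to 3 as libraries were left out. CANNTG in place of CACGTG was found in 8 genes in place of 2. The replicate numbers share only a number: the deviations of same-numbered libraries correlated at 0.077 in overexpression, 0.149 in knockdown and -0.095 between controls. The block raised the number of genes passing the test in knockdown from 4799 to 6318, and MNT passed there (adjusted p = 0.0163). Depth limits MYCN and MYCNOS, with 0 to 5 counts outside overexpression, where neither absence nor a small change could be measured.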
